A study of Mus musculus with 12 samples.

Results

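The response of macrophages to PgLPS in the presence of CS-PA/CNP was measured by setting libraries of cells given PgLPS and CS-PA/CNP against libraries of cells given CS-PA/CNP alone. The cells were mouse primary bone marrow-derived macrophages of wt genotype, which are grown from marrow. RNA sequencing gave 3 libraries per group, so the comparison used 6 of the 12 libraries of the series. It was read over 11656 genes with enough reads to test, of 21899 in the deposited table. The other 6 libraries, of cells given PgLPS without the material and of control cells, served to show where the response differed. CS-PA/CNP, called the material below, was thus present in both groups of the main comparison and absent from the other pair. The labels spell out neither abbreviation and give no dose, time or order of addition. The columns of the table carry the letters LM, M, L and C, read here as PgLPS and CS-PA/CNP, CS-PA/CNP, PgLPS and control. Nothing says that the libraries of a group came from separate animals or cultures, so p-values measure the spread between these libraries, which may be technical.

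Lipopolysaccharide, commonly shortened to LPS, is a bacterial cell wall component sensed by Toll-like receptors with the help of the surface protein CD14. One branch of the signal runs through the adaptor MYD88 to the factor NF-kB, which switches on cytokines, chemokines and its own inhibitors. Another runs through the adaptor TRIF to interferon regulatory factors and interferon beta. Secreted interferon then acts through its receptor and STAT proteins on the antiviral genes, whose promoters often hold the interferon-stimulated response element. Activated macrophages also change their fuel use, present more antigen and leave the cell cycle.

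Each library with both agents held 16301947 to 19422021 counted reads, and each with the material alone 16130784 to 20082900. Mitochondrial genes held 1.21% to 1.28% of reads with both agents and 1.60% to 1.74% with the material alone. Macrophage markers summed to 31800 to 32800 CPM with both agents and to 26000 to 27600 CPM with the material alone, where CPM are counts scaled to a common library size with TMM factors, and 6 of these 8 rose and 1 fell. Neutrophil markers summed to 391 to 425 CPM with both agents and to 144 to 184 CPM with the material alone, and 4 of the 8 tested were higher. These were Csf3r (log2 2.25), S100a8 (1.01), Camp (0.92) and S100a9 (0.61), while Mpo, Prtn3, Ngp and Cxcr2 did not pass. Ly6g and Elane had too few reads to test. Endothelial markers summed to 12.5 to 13.8 CPM with both agents and to 4.42 to 6.02 CPM with the material alone, with 2 of 4 tested higher. Stromal markers summed to 2.18 to 4.62 CPM with both agents and to 0.718 to 2.10 CPM with the material alone, also with 2 of 4 higher. Dendritic cell markers summed to 4.28 to 5.54 CPM with both agents and to 0.863 to 1.27 CPM with the material alone, with the 1 tested member higher. Mast cell and basophil markers summed to 3.71 to 5.31 CPM with both agents and to 1.38 to 2.27 CPM with the material alone, with 1 of 4 higher. T cell markers summed to 174 to 199 CPM with both agents and to 230 to 242 CPM with the material alone, and of the 3 tested Il7r was lower (log2 -0.33) and Lck higher (log2 1.29), a call lost without CS-PA/CNP replicate 3 (1.12) or PgLPS and CS-PA/CNP replicate 2 (1.09). Most reads of the T cell sum were those of Il7r, with 2700 to 4935 per library. Cd4 had 98 to 194, and Cd3e and Cd3g had 0 to 4. The T cell markers Cd3d and Cd8a and the natural killer cell markers Klrd1, Gzma, Prf1 and Eomes had no read in these 6 libraries. In bulk RNA, more cells of a type and more RNA per cell cannot be told apart, and the part of these markers in the results below was not tested.

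With PgLPS added to the material, 3097 genes rose (26.6% of those tested) and 2957 fell (25.4%), so 6054 genes (51.9%) passed an adjusted p of 0.05 in edgeR's quasi-likelihood test. Most of these changes were small: the median log2 fold change was 0.59 among the genes that rose and -0.66 among those that fell. At least 2-fold changes were called for 991 higher genes (8.5%) and 907 lower genes (7.78%). Among large fitted changes rises outnumbered falls: a log2 fold change of at least 4 in size was fitted for 154 genes that rose and 14 that fell. Over all tested genes the median was -0.01, and the libraries of the groups did not overlap for 6948 genes (59.6%). Scaled by library totals in place of TMM factors, the median of all genes lay 0.322 lower on the log2 scale, 1635 genes rose and 6413 fell, so 20.3% of the calls were higher against 51.2% in the fit reported here. Counts and directions below are relative to the TMM scaling, with the counts by library totals beside a list where they differ much. The counts of every list are to be read beside the 26.6% of all genes tested that rose and the 25.4% that fell. Log2 fold changes are given ± the standard error of that fit with its Benjamini-Hochberg adjusted p, and means ± the SD of 3 libraries.

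**Figure D1:**
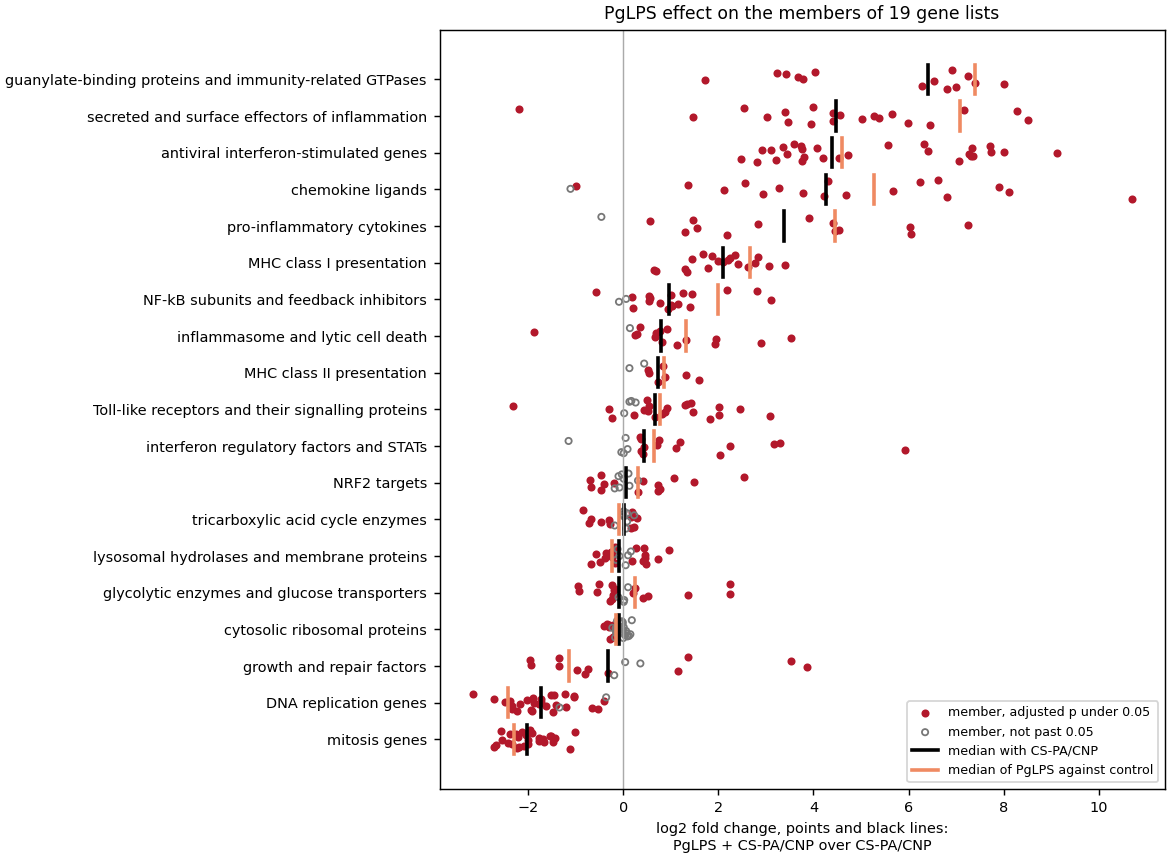
Log2 fold changes of the tested members of 19 gene lists, 1 point per gene, with PgLPS and CS-PA/CNP over CS-PA/CNP alone. Filled points passed an adjusted p of 0.05 and open points did not. Black lines are list medians of this comparison and orange lines the medians of the same genes with PgLPS over control. Interferon-stimulated and inflammatory lists lie to the right, at medians up to 6.41, and both cell cycle lists lie to the left, at -1.73 and -2.03. Points of 2 cytokines, 3 chemokine ligands and 3 effectors rest on 3 reads or fewer in a group. Among them are Ccl12, Ccl17, Cfb, Nos2 and Edn1, low with the material alone. Such points are fitted values and no bounds.

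The sensors of bacterial products were mostly higher with PgLPS. Of 25 tested Toll-like receptors and their signalling proteins, 18 rose, 3 fell and 4 did not pass the test, with a median log2 fold change of 0.67 against -0.01 over all genes tested. By library totals 14 rose and 5 fell. Cd14, the co-receptor that hands lipopolysaccharide to the receptor complex, had 908, 1011 and 888 CPM with both agents, against 262, 252 and 275 CPM with the material alone. All 3 libraries with both agents lay above all 3 with the material alone, and the log2 fold change was 1.83 ± 0.07, adjusted p = 5.0e-14. Tlr1, a partner of the lipoprotein receptor Tlr2, had 269, 297 and 284 CPM with both agents, against 49.4, 58 and 46.8 CPM with the material alone, a log2 fold change of 2.46 ± 0.08, adjusted p = 5.2e-15. Tlr5, the flagellin receptor, was the largest of the 3 falls, at -2.31, and was named for that after its value was seen. Tlr3, the sensor of double-stranded RNA, rose by 2.01 ± 0.12 and Myd88, the shared adaptor, by 1.47 ± 0.09 on the log2 scale. Irak3, a kinase-like protein that damps the MYD88 signal, rose most in this list, at 284, 259 and 278 CPM with both agents, against 34.5, 30.7 and 31.5 CPM with the material alone (log2 3.09 ± 0.07, adjusted p = 2.5e-17). Tlr2 and Tlr4 were added here after their values were seen. Tlr2 averaged 222 ± 12.4 CPM with both agents and 118 ± 4.88 CPM with the material alone (log2 0.92 ± 0.06, adjusted p = 1.3e-10). Tlr4, the lipopolysaccharide receptor, averaged 82.99 ± 1.99 CPM with both agents and 56.6 ± 3.94 CPM with the material alone (log2 0.55 ± 0.10, adjusted p = 1.6e-04). By library totals the change of Tlr4 was 0.23 and was not called.

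Genes of the NF-kB system were mostly higher. Of 20 tested subunits and feedback inhibitors 17 rose, 1 fell and 2 did not pass, with a median of 0.97. By library totals 14 rose and 2 fell. Nfkbiz, an atypical inhibitor protein that co-activates secondary response genes, had 156, 190.2 and 166 CPM with both agents, against 18.8, 19.9 and 20.8 CPM with the material alone, a log2 fold change of 3.10 ± 0.09, adjusted p = 7.3e-16. Traf1, an adaptor of tumour necrosis factor receptors, had 71.5, 63.1 and 68 CPM with both agents, against 9.45, 7.82 and 11.4 CPM with the material alone (log2 2.81 ± 0.12, adjusted p = 1.9e-13). Zc3h12a, a nuclease that degrades inflammatory messengers, rose by 2.19 ± 0.08, the kinase gene Ikbke by 1.41 ± 0.05 and Tnip1, which restrains NF-kB through ubiquitin, by 1.25 ± 0.06. The last had 279.9, 287 and 290.5 CPM with both agents, against 119.5, 120.2 and 122 CPM with the material alone, with no overlap between the groups. Its promoter is shown because it holds the palindromic form of a kB-type motif. The motif searched was GGGAA, any 3 bases and CC, on either strand in the 250 bases before the annotated start (RefSeq, GRCm38.p6), and capitals mark the match.
Tnip1, GRCm38.p6 chr11:54962941-54963190, minus strand: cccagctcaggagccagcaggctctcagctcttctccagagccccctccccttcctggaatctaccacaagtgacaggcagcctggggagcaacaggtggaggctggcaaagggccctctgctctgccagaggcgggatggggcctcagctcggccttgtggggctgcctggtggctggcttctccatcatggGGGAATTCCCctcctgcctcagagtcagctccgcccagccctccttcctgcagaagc
That motif was in 5.93% of 11970 promoters of tested genes. Counted by gene, it was in a promoter of 7.0% of the 9381 tested genes with a sequence, 7 of 17 NF-kB genes, 5 of 12 chemokine genes and 3 of 10 cytokine genes. In lists described below it was in 3 of 21 antiviral genes, 1 of 9 GTPase genes, 3 of 24 DNA replication genes and 3 of 23 mitosis genes. The motifs were chosen with the expression results known, and a match is a description of letters only.

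Brakes on signalling split. Among 20 tested SOCS proteins, dual-specificity phosphatases and related regulators, 10 rose, 5 fell and 5 did not pass, with a median of 0.18, and by library totals 7 rose and 8 fell with a median of -0.14. The SOCS genes carried the largest changes. Socs3, which blocks signalling by IL-6 family receptors, had 409.6, 386 and 413 CPM with both agents, against 6.57, 4.69 and 5.81 CPM with the material alone, a log2 fold change of 6.14 ± 0.10, adjusted p = 4.5e-19. Socs1, which blocks JAK kinases, had 31.8, 30.1 and 31 CPM with both agents, against 1.66, 0.539 and 1.79 CPM with the material alone (log2 4.51 ± 0.19, adjusted p = 2.1e-13). For both genes each library with both agents lay above each with the material alone. Zfp36, which binds and destabilises cytokine messengers, rose by 1.60 ± 0.07, while its relative Zfp36l2 fell, with a log2 fold change of -0.85 ± 0.06, adjusted p = 1.8e-09.

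Pro-inflammatory cytokine messengers rose. Of 14 tested, 13 rose and 1 did not pass, and 12 rose at least 2-fold, with a median log2 fold change of 3.37. By library totals 12 rose and 1 fell. Il1b, the precursor of secreted interleukin 1 beta, had 494, 474 and 528 CPM with both agents, against 2.21, 2.37 and 4.96 CPM with the material alone. The lowest library with both agents lay far above the highest with the material alone, and the log2 fold change was 7.25 ± 0.18, adjusted p = 4.0e-17. Il1a, its membrane-bound relative, had 124, 96.1 and 141 CPM with both agents, against 1.93, 1.78 and 1.83 CPM with the material alone (log2 6.02 ± 0.17, adjusted p = 3.5e-16). Tnf, the tumour necrosis factor gene, was already present with the material alone, at 189, 205 and 216 CPM with both agents, against 75.6, 72.7 and 71.3 CPM with the material alone, and its log2 fold change was smaller, 1.47 ± 0.08, adjusted p = 1.3e-11. Il6 had 6.25, 4.28 and 6.13 CPM with both agents, against 0.276, 0.162 and 0.313 CPM with the material alone, and the groups did not overlap (log2 4.40 ± 0.31, adjusted p = 4.8e-10). Csf3, the granulocyte growth factor, had 391 reads over the 3 libraries with both agents and 7 with the material alone (log2 6.05 ± 0.42, adjusted p = 4.7e-10). Il27 and Ebi3, which form 1 heterodimeric cytokine, rose by 2.84 ± 0.18 and 1.3 ± 0.09.

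Chemokine ligand genes were among those with the highest fold changes. Of 18 tested, 16 rose, each at least 2-fold, 1 fell and 1 did not pass, with a median of 4.26, or 4.10 with genes of 3 reads or fewer in a group set at their bound. Ccl12, a ligand of Ccr2, had 181, 246 and 140 reads with both agents and no read in any library with the material alone. Against 3 reads over that group, it was at least 235.8-fold higher. Ccl5, which draws T cells and monocytes, had 1148, 1235 and 1057 CPM with both agents, against 3.92, 2.10 and 6.08 CPM with the material alone, a log2 fold change of 8.11 ± 0.18, adjusted p = 1.5e-17. Cxcl10, an interferon-induced ligand, had 602, 533 and 509 CPM with both agents, against 2.98, 1.40 and 2.46 CPM with the material alone (log2 7.90 ± 0.18, adjusted p = 1.5e-17). Cxcl3, which attracts neutrophils, had 407, 250.4 and 410.5 CPM with both agents, against 5.58, 3.02 and 5.41 CPM with the material alone, and the groups did not overlap (log2 6.24 ± 0.24, adjusted p = 4.2e-14). The monocyte attractants Ccl2 and Ccl7 rose by 4.22 ± 0.14 and 5.67 ± 0.16, Ccl3 by 2.94 ± 0.11 and Ccl22 by 4.68 ± 0.23. The member that fell was Cxcl14, named here for that reason, at 208, 167 and 225 CPM with both agents, against 431, 361 and 409 CPM with the material alone (log2 -1.0 ± 0.10, adjusted p = 4.4e-08).

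Receptors for chemoattractants moved both ways, with 9 of 13 higher and 4 lower. The formyl peptide receptors, which sense bacterial peptides, rose most. Fpr1 had 321, 274 and 319.8 CPM with both agents, against 7.35, 5.50 and 7.78 CPM with the material alone (log2 5.46 ± 0.11, adjusted p = 2.2e-18), and Fpr2 had 269, 276 and 259 CPM with both agents, against 4.47, 6.04 and 6.35 CPM with the material alone (log2 5.56 ± 0.10, adjusted p = 5.2e-19). Ccr1 rose by 1.94 ± 0.06 and the receptor for complement C3a, C3ar1, by 0.91 ± 0.05. Cx3cr1, the fractalkine receptor of resident macrophages, fell to 49.7, 55.6 and 53.4 CPM with both agents, against 222, 190 and 219 CPM with the material alone (log2 -1.99 ± 0.07, adjusted p = 3.0e-14). Cxcr4, which retains cells in marrow, had 6.12, 5.73 and 7.36 CPM with both agents, against 39.5, 45.4 and 43.5 CPM with the material alone, and the groups did not overlap (log2 -2.75 ± 0.11, adjusted p = 6.4e-14).

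**Figure D2:**
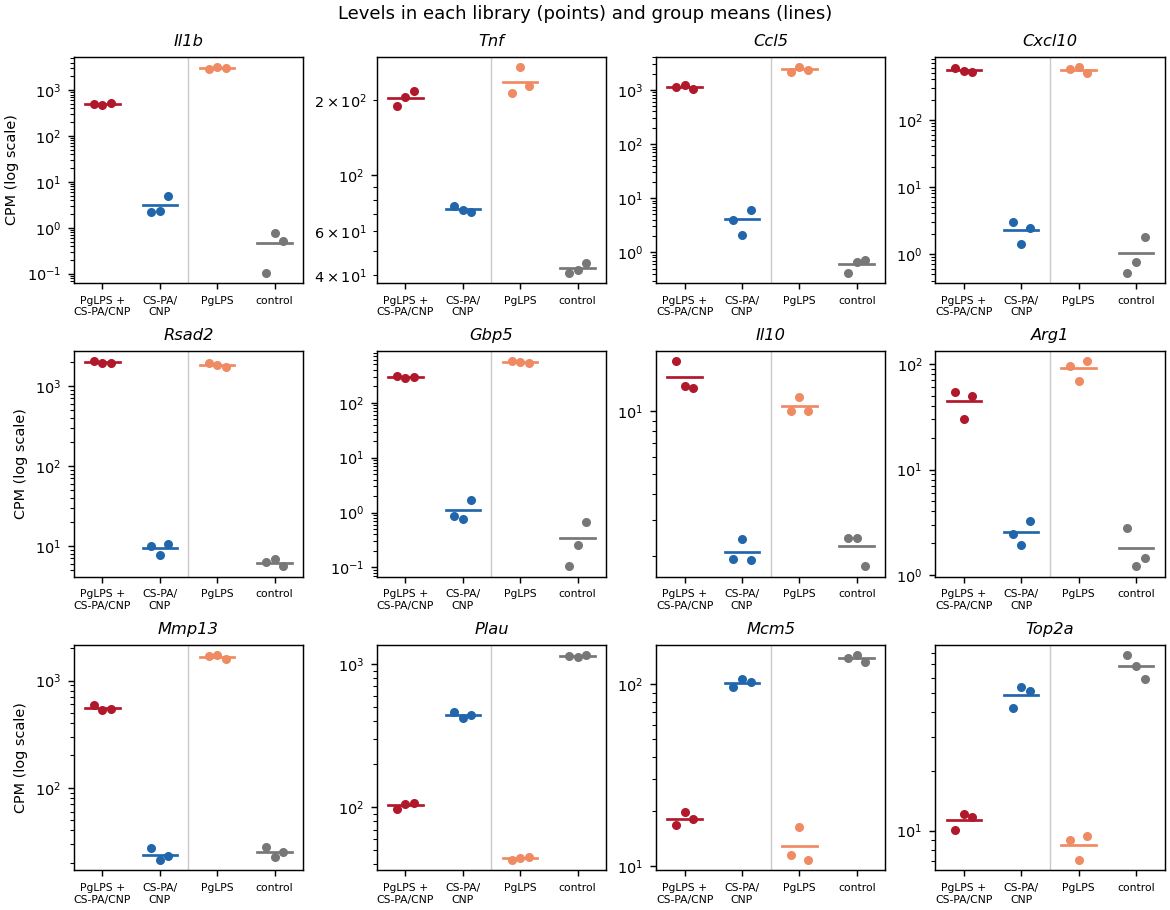
CPM of 12 genes in each of the 12 libraries on a log scale, with the PgLPS and CS-PA/CNP, CS-PA/CNP, PgLPS and control groups side by side. Points are libraries and lines are group means of 3. For each gene the libraries with PgLPS and CS-PA/CNP lie apart from those with CS-PA/CNP alone, above for the first 9 genes and below for Plau, Mcm5 and Top2a.

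The antiviral interferon-stimulated genes rose without exception. All 28 tested members rose, each at least 2-fold, with a median log2 fold change of 4.38 and a range of 2.47 to 9.12, and all 28 also rose by library totals. Rsad2, which makes an antiviral nucleotide, had 2054, 1958 and 1942 CPM with both agents, against 9.998, 7.71 and 10.6 CPM with the material alone, a log2 fold change of 7.71 ± 0.10, adjusted p = 2.9e-20. Ifit2 and Ifit3, which bind foreign RNA, had log2 fold changes of 8.01 ± 0.12, adjusted p = 1.2e-19 and 7.74 ± 0.14, adjusted p = 8.4e-19. Ifit3 had 1062, 1035 and 913 CPM with both agents, against 4.31, 4.15 and 5.50 CPM with the material alone. Isg15, a ubiquitin-like modifier, was added after its values were seen, with 677, 767 and 624 CPM with both agents, against 7.62, 8.74 and 8.13 CPM with the material alone. Zbp1, a sensor of left-handed nucleic acid, rose by 6.32 ± 0.08. The related genes Ifi208, Ifi213 and Ifi205 rose by 9.07 ± 0.19, 8.26 ± 0.15 and 7.36 ± 0.10. They are close relatives, so reads could be split between them in the authors' counting.

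Guanylate-binding proteins and immunity-related GTPases, which attack vacuoles that hold microbes, had the highest median of any list. All 14 tested rose, with a median of 6.41 and a range of 1.71 to 8.0. Gbp5 had 304, 288 and 297 CPM with both agents, against 0.884, 0.755 and 1.70 CPM with the material alone, a log2 fold change of 8.0 ± 0.16, adjusted p = 2.8e-18. Gbp2 had 704, 811 and 700.5 CPM with both agents, against 6.02, 6.10 and 7.60 CPM with the material alone (log2 6.80 ± 0.12, adjusted p = 8.2e-19), and Gbp3 rose by 6.99 ± 0.12. Irgm1 and Irgm2 were expressed with the material alone at means of 41.95 and 23.6 CPM and rose less, by 3.43 ± 0.06 and 3.24 ± 0.07. The promoters of Ifit3 and Gbp5 are shown because they carry the interferon-type motif, GAAA, any 2 bases and GAAA, on the opposite strand, where it reads TTTC, any 2 bases and TTTC. Capitals mark this motif and, in Gbp5, also the kB-type motif.
Ifit3, GRCm38.p6 chr19:34583279-34583528, plus strand: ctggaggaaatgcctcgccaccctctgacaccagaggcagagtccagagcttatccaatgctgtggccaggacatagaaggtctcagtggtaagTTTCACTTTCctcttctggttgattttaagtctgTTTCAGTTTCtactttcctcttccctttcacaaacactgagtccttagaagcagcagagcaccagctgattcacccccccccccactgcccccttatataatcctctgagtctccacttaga
Gbp5, GRCm38.p6 chr3:142496684-142496933, plus strand: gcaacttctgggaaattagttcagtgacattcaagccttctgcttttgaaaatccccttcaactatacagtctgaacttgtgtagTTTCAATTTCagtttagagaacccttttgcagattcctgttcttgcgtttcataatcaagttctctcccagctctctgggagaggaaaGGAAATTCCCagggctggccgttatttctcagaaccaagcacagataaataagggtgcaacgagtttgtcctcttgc
In Ifit3 the motif occurs 2 times, beginning 156 and 122 bases before the start, and in Gbp5 it begins 165 bases and the kB-type motif 77 bases before it, without overlap between them. The interferon-type motif was in 2.87% of the 11970 promoters. Counted by gene, it was in a promoter of 9 of 9 GTPase genes with a sequence and 10 of 21 antiviral genes, against 3.46% of the 9381 tested genes, 2 of 12 chemokine genes, 0 of 10 cytokine genes and 0 of 17 NF-kB genes.

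Most factors that carry the interferon signal rose too. Of 19 tested interferon regulatory factors and STATs, 14 rose, none fell and 5 did not pass, with a median of 0.43, although by library totals 9 rose and 4 fell. Irf7, the amplifier of the interferon response, had 1120.3, 1155 and 1067 CPM with both agents, against 16.9, 19.7 and 18.5 CPM with the material alone (log2 5.92 ± 0.08, adjusted p = 4.2e-20). Stat2, a partner in the factor that binds interferon response elements, rose by 3.29 ± 0.08, the kinase gene Jak2 by 2.24 ± 0.09 and Irf1 by 2.04 ± 0.10. The interferon beta gene itself was not among the genes tested.

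Genes of antigen presentation by MHC class I rose in every case. All 19 tested rose, 17 of them at least 2-fold, with a median of 2.09. Tap1, which pumps peptides into the endoplasmic reticulum, had 421, 429 and 416 CPM with both agents, against 58.2, 64.2 and 56.3 CPM with the material alone (log2 2.83 ± 0.08, adjusted p = 2.4e-16). Tapbp, which loads them, rose by 2.35 ± 0.07, and Nlrc5, the transactivator of these genes, by 2.76 ± 0.10. The class I genes H2-T22 and H2-T23 rose by 3.41 ± 0.07 and 2.41 ± 0.09, where reads may be shared with near-identical copies. Class II genes rose less: 7 of 9 tested rose and 2 did not pass, with a median of 0.73. H2-Ab1, a chain of the class II molecule, had 244, 226 and 234 CPM with both agents, against 95.2, 85.3 and 102 CPM with the material alone (log2 1.32 ± 0.07, adjusted p = 1.8e-11), and H2-Aa rose by 0.88 ± 0.07. Of 15 tested ligands that act on T cells 12 rose and 1 fell, Vsir, at -0.63, named after its value was seen, against 10 and 3 by library totals. Cd274, which encodes the checkpoint ligand PD-L1, had 604, 556 and 612 CPM with both agents, against 37.2, 39.98 and 42.2 CPM with the material alone (log2 3.89 ± 0.07, adjusted p = 1.4e-18). Cd40, a co-stimulatory receptor, rose by 3.46 ± 0.12 and Lgals9, a galectin that binds TIM-3, by 3.41 ± 0.07. The gene of TIM-3 itself, Havcr2, fell to 12.9 ± 0.828 CPM with both agents, against 52.4 ± 3.79 CPM with the material alone (log2 -2.03 ± 0.10, adjusted p = 2.0e-12).

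Secreted and surface effectors of inflammation rose in 19 of 20 cases, with a median of 4.48. Saa3, an acute-phase protein, had 3348, 3930.4 and 3272 CPM with both agents, against 7.90, 4.32 and 20.5 CPM with the material alone (log2 8.29 ± 0.34, adjusted p = 1.3e-13). It was among the 10 largest gains in mean CPM. Acod1, the itaconate-making enzyme, had 2000.3, 1756 and 2002 CPM with both agents, against 22.1, 19.9 and 23.3 CPM with the material alone (log2 6.46 ± 0.11, adjusted p = 7.2e-19). Marco, a scavenger receptor for bacteria, had 1642, 1719 and 1680.3 CPM with both agents, against 44.96, 39.5 and 45.5 CPM with the material alone (log2 5.28 ± 0.09, adjusted p = 4.5e-19). Haptoglobin (Hp) and complement C3 rose by 5.37 ± 0.11 and 3.94 ± 0.07. Complement factor B (Cfb) had 45, 38 and 40 reads with both agents and none with the material alone, at least 51.1-fold higher against 3 reads over that group. Nos2, the inducible nitric oxide synthase, stayed near the floor: it had 138 reads over the libraries with both agents and 3 with the material alone, a ratio of CPM of 57.4 with an exact 95% counting interval of 19.2 to 281.6. Prostaglandin synthesis showed the pair Ptgs2 and Ptges, which make prostaglandin E2, rising by 3.40 ± 0.20 and 4.40 ± 0.11. Ptgs1, the constitutive cyclooxygenase, and Hpgd, which degrades prostaglandins, fell by 1.44 and 2.61 on the log2 scale.

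Inflammasome and lytic death genes rose in 14 of 16 cases, with a median of 0.80, and 11 rose and 2 fell by library totals. Mlkl, the executioner of necroptosis, had 149, 143 and 145 CPM with both agents, against 14.4, 11.9 and 11.9 CPM with the material alone (log2 3.52 ± 0.08, adjusted p = 1.2e-17). Casp4, which senses lipopolysaccharide in the cytosol, rose by 2.89 ± 0.12, Casp1 by 1.93 ± 0.10 and the pore protein Gsdmd by 1.31 ± 0.07. Nlrp3, the best known inflammasome sensor, averaged 109 ± 19.8 CPM with both agents and 64.1 ± 3.72 CPM with the material alone (log2 0.77 ± 0.10, adjusted p = 4.3e-06), and the member that fell was Nlrp1b, at 14.3 ± 1.80 CPM with both agents and 52.4 ± 3.52 CPM with the material alone (log2 -1.87 ± 0.12, adjusted p = 1.1e-10), both added after their values were seen. Of 15 tested BCL2 family genes 6 rose and 4 fell, beside 26.6% and 25.4% of all genes tested. By library totals 4 rose and 5 fell. Bcl2a1a, a survival factor with near-identical copies, rose by 3.90 ± 0.15 and the death promoter Bmf fell by 1.74 on the log2 scale.

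Genes of alternative activation did not move as a bloc. They and those of arginine metabolism are set beside all genes tested, of which 26.6% rose and 25.4% fell. Of 15 tested, 9 rose, 3 fell and 3 did not pass, with a median of 0.99, and 8 rose and 5 fell by library totals. Arg1, which turns arginine into ornithine, had 54.8, 30.1 and 49.6 CPM with both agents, against 2.43, 1.94 and 3.26 CPM with the material alone. The spread with both agents was wide, and the groups did not overlap (log2 4.11 ± 0.26, adjusted p = 1.3e-10). Il10, the anti-inflammatory cytokine, had 17.4, 13.2 and 13.01 CPM with both agents, against 1.93, 2.43 and 1.92 CPM with the material alone (log2 2.80 ± 0.18, adjusted p = 1.6e-10). Il1rn, the antagonist of the interleukin 1 receptor, had 711, 627 and 659 CPM with both agents, against 22.1, 19.6 and 18.9 CPM with the material alone (log2 5.04 ± 0.08, adjusted p = 9.2e-20). The receptor chain Il4ra rose by 2.14 ± 0.07. Clec10a, a lectin typical of alternatively activated cells, fell to 1.67 ± 0.308 CPM with both agents, against 12.1 ± 0.374 CPM with the material alone (log2 -2.85 ± 0.17, adjusted p = 3.1e-11). In arginine metabolism, where 4 of 12 genes rose and 4 fell (3 and 6 by library totals), Ass1, which regenerates arginine, had 400.5, 357 and 425 CPM with both agents, against 49.7, 38.5 and 45 CPM with the material alone (log2 3.15 ± 0.09, adjusted p = 2.5e-16), and Gch1, needed for the cofactor of nitric oxide synthase, rose by 2.21 ± 0.08.

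Glycolysis genes moved both ways. Of 21 tested glycolytic enzymes, transporters and regulators, 7 rose, 10 fell and 4 did not pass, with a median of -0.10, and by library totals 3 rose and 14 fell. Without the material 15 of the same genes were higher with PgLPS than in control and 3 were lower, with a median of 0.25. Library totals shifted the median of all genes in that comparison by -0.414, a larger size than this 0.25. The direction of the list without the material thus also rests on the scaling. Pfkfb3, which makes the activator of phosphofructokinase, had 141, 129.6 and 152 CPM with both agents, against 28.9, 29.9 and 30.1 CPM with the material alone (log2 2.25 ± 0.08, adjusted p = 1.9e-14). Hk3, a hexokinase of myeloid cells, rose by 1.36 ± 0.06 and the transporter Slc2a6 by 2.24 ± 0.10. The lactate exporter Slc16a3 fell, at 49.4, 49.02 and 47.6 CPM with both agents, against 100.3, 85.2 and 97.3 CPM with the material alone (log2 -0.95 ± 0.09, adjusted p = 2.8e-08). Pfkl, the liver-type phosphofructokinase, fell to 83.1, 82.8 and 74.8 CPM with both agents, against 126, 108 and 118 CPM with the material alone (log2 -0.55 ± 0.08, adjusted p = 5.7e-06), and Tpi1 fell by 0.50 on the log2 scale. Of 19 tricarboxylic acid cycle enzymes 5 rose and 6 fell, near the 26.6% and 25.4% of all genes tested. By library totals none of these enzymes rose and 15 fell, so their direction as a group rests on the scaling. Idh2 averaged 39.6 ± 0.590 CPM with both agents and 65.5 ± 5.83 CPM with the material alone (log2 -0.72 ± 0.08, adjusted p = 2.4e-07), and Mdh1 and Suclg2 fell by 0.68 and 0.85. Nuclear genes of the respiratory chain showed 9 of 28 higher and none lower, with changes under 2-fold, and 2 higher and 13 lower by library totals.

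Antioxidant genes also split, with 8 of 22 NRF2 targets higher and 6 lower, beside 26.6% and 25.4% of all genes tested. Their median was 0.06, and by library totals 6 were higher and 13 lower. The members that rose included some of the most abundant messengers of the cells. Fth1, the heavy chain of the iron store ferritin, had 42268, 47152 and 41773 CPM with both agents, against 24824, 25166 and 26419 CPM with the material alone (log2 0.78 ± 0.07, adjusted p = 9.0e-09). Prdx1, a peroxide-removing enzyme, had 9495, 10187 and 9429.6 CPM with both agents, against 4602, 4656 and 4605 CPM with the material alone (log2 1.07 ± 0.05, adjusted p = 3.0e-12). Hmox1, which breaks down haem, had 6557, 5507 and 6276 CPM with both agents, against 2354, 2021 and 2210.4 CPM with the material alone (log2 1.48 ± 0.07, adjusted p = 2.5e-12). Slc7a11, the cystine importer, had 220, 151 and 250.4 CPM with both agents, against 39.6, 34.1 and 33.4 CPM with the material alone (log2 2.54 ± 0.17, adjusted p = 3.2e-10). Osgin1 fell by 0.70 on the log2 scale. Cybb, the catalytic subunit of the phagocyte oxidase and no member of that list, was another of the 10 largest gains in mean CPM, at 4390.5, 3806 and 4439 CPM with both agents, against 894, 865 and 867 CPM with the material alone (log2 2.27 ± 0.07, adjusted p = 3.7e-15).

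Lipid handling shifted gene by gene. Counts of this and the lysosomal and cathepsin lists stand beside 26.6% of all genes tested that rose and 25.4% that fell. Of 28 cholesterol and fatty acid synthesis genes 6 rose, 4 fell and 18 did not pass, while by library totals 1 rose and 17 fell. Fasn, the fatty acid synthase, fell by 0.83 on the log2 scale and Acss2, which makes acetyl-CoA from acetate, rose by 1.72 ± 0.15. Of 10 tested LXR targets and cholesterol efflux genes 4 rose, 3 fell and 3 did not pass, with a median of 0.15. By library totals 3 rose and 6 fell. Nr1h3, which encodes the sterol receptor LXR alpha, and Abca1, the cholesterol exporter it controls, rose by 1.90 ± 0.12 and 1.74 ± 0.11. Mylip and Abca9, of the same list, fell, with log2 fold changes of -1.01 ± 0.10 and -1.29 ± 0.13. Lipa, the lysosomal lipase, fell to 1707, 1794 and 1796 CPM with both agents, against 2615, 2721 and 2554 CPM with the material alone (log2 -0.57 ± 0.05, adjusted p = 4.9e-09). Lysosomal genes as a list were divided, with 9 of 25 higher and 10 lower (4 and 15 by library totals). The cholesterol carrier Npc2 rose by 0.96 ± 0.07, and Atp6v0d2, a proton pump subunit, fell by 0.68. Among cathepsins and their inhibitors, 7 of 15 rose and 2 fell, against 5 and 7 by library totals. Ctsc, which activates granule proteases, rose by 2.13 ± 0.06, and Ctsd fell by 0.56.

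Surface receptors of phagocytes moved both ways. Of 22 scavenger and efferocytosis receptors 10 rose and 9 fell, with a median of -0.05, and 10 rose and 12 fell by library totals. Msr1, the class A scavenger receptor, had 2420.5, 2274 and 2277 CPM with both agents, against 629, 592 and 584 CPM with the material alone (log2 1.95 ± 0.05, adjusted p = 2.9e-16), and Clec4e, which senses mycobacterial lipid, had 915, 840.4 and 888 CPM with both agents, against 90.4, 77.5 and 88.6 CPM with the material alone (log2 3.36 ± 0.08, adjusted p = 1.8e-17). Trem2, a lipid receptor of the repair state, fell to 552 ± 72.8 CPM with both agents, against 974 ± 52.1 CPM with the material alone (log2 -0.82 ± 0.11, adjusted p = 2.9e-06), and the integrin subunit Itgb5 fell by 1.19. Of 7 Fc receptors 5 rose and 1, Fcgrt, also named after its value was seen, fell, at -0.36, a call lost without CS-PA/CNP replicate 2 or 3 (-0.31 and -0.34) or PgLPS and CS-PA/CNP replicate 1 or 3 (-0.29 and -0.26). The high-affinity receptor Fcgr1 had 1598, 1657 and 1503 CPM with both agents, against 152, 154 and 149 CPM with the material alone (log2 3.38 ± 0.07, adjusted p = 1.8e-18). The inhibitory receptor Fcgr2b had 407, 426 and 427 CPM with both agents, against 29.4, 29.6 and 26.7 CPM with the material alone (log2 3.88 ± 0.06, adjusted p = 3.7e-19). Of 20 tested identity genes of macrophages, 10 rose, 4 fell and 6 did not pass, against 7 and 10 by library totals. Adgre1, which encodes the F4/80 antigen, had 3633, 3859 and 3644 CPM with both agents, against 925, 1044 and 986 CPM with the material alone (log2 1.91 ± 0.05, adjusted p = 3.7e-16), and the factor Maf rose by 1.94 ± 0.06.

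Matrix enzymes and growth factors also moved both ways. Of 17 tested proteases and plasminogen activation genes 9 rose and 4 fell, against 7 and 7 by library totals. Mmp13, a collagenase, had 595, 532 and 547 CPM with both agents, against 27.3, 21.1 and 23.1 CPM with the material alone (log2 4.55 ± 0.09, adjusted p = 3.7e-18). Mmp14, which is anchored in the membrane, had 623, 566 and 599 CPM with both agents, against 20.8, 21.3 and 24.8 CPM with the material alone (log2 4.74 ± 0.10, adjusted p = 4.2e-18), and Mmp9 rose by 2.78 ± 0.10. Plau, the urokinase gene, went the other way, with 98.01, 106 and 107 CPM with both agents, against 461, 420.2 and 442 CPM with the material alone (log2 -2.09 ± 0.06, adjusted p = 2.9e-16). Its inhibitor gene Serpinb2 had 1297 reads over the libraries with both agents and 11 with the material alone (log2 7.16 ± 0.34, adjusted p = 1.4e-11). Growth and repair factors were lower in 8 of 15 cases and higher in 4, with a median of -0.33. Vegfa, the angiogenic factor, had 14.5, 11.1 and 13.97 CPM with both agents, against 58.9, 44.8 and 51.2 CPM with the material alone (log2 -1.97 ± 0.11, adjusted p = 2.5e-11), and Pdgfb had 55.2, 59.7 and 56.3 CPM with both agents, against 230.4, 217 and 214 CPM with the material alone (log2 -1.95 ± 0.07, adjusted p = 4.8e-14). Igf1 fell by 0.75 on the log2 scale. Inhba, a subunit of activin A, and the matrix protein gene Thbs1 rose by 3.86 ± 0.28 and 3.52 ± 0.19. Of 12 osteoclast genes 5 rose, 3 fell and 4 did not pass, beside 26.6% of all genes tested that rose and 25.4% that fell. By library totals 4 of them rose and 5 fell. Acp5, the tartrate-resistant phosphatase, rose by 3.04 ± 0.10 and Src by 2.29 ± 0.09, while Nfatc1, the master factor of osteoclasts, was lower, at 37.3 ± 2.56 CPM with both agents, against 48.2 ± 2.73 CPM with the material alone (log2 -0.37 ± 0.08, adjusted p = 3.8e-04). The adenosine receptors Adora2a and Adora2b rose by 3.12 ± 0.20 and 1.82 ± 0.13, in a list of 14 purinergic genes where 10 rose and 4 fell.

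Proliferation genes were lower with both agents. Of 30 DNA replication genes tested 28 fell and 2 did not pass, with a median of -1.73, and all 30 fell by library totals. All 28 mitosis genes fell, each at least 2-fold, with a median of -2.03. Mcm5, a subunit of the replicative helicase, had 16.7, 19.97 and 18.1 CPM with both agents, against 96.3, 107 and 103 CPM with the material alone (log2 -2.48 ± 0.11, adjusted p = 4.8e-13). Rrm2, which makes deoxynucleotides, had 2.28, 2.95 and 2.11 CPM with both agents, against 19.3, 25.1 and 22.3 CPM with the material alone, and the groups did not overlap (log2 -3.17 ± 0.16, adjusted p = 5.0e-12). The DNA ligase Lig1 fell by 2.33. Top2a, which untangles chromosomes, had 10.03, 12.2 and 11.8 CPM with both agents, against 42.3, 54.01 and 51.3 CPM with the material alone (log2 -2.12 ± 0.13, adjusted p = 7.4e-11). Mki67, the usual proliferation marker, had 16.1, 16.6 and 17.4 CPM with both agents, against 43.8, 53.9 and 45.99 CPM with the material alone (log2 -1.52 ± 0.09, adjusted p = 2.9e-11), and Ccna2, cyclin A, fell by 2.68. Cdkn1a, the p21 inhibitor of the cell cycle, rose to 388, 381 and 380.1 CPM with both agents, against 140.1, 139 and 129 CPM with the material alone (log2 1.5 ± 0.07, adjusted p = 7.0e-13). Promoters of Mcm5 and Top2a are printed to show the cell cycle motifs. In Mcm5 the capitals mark the E2F-type motif TTTGGCGC and CCAAT boxes, and in Top2a CCAAT boxes and TTTGAA, the letters of the CHR element, all on either strand.
Mcm5, GRCm38.p6 chr8:75109259-75109508, plus strand: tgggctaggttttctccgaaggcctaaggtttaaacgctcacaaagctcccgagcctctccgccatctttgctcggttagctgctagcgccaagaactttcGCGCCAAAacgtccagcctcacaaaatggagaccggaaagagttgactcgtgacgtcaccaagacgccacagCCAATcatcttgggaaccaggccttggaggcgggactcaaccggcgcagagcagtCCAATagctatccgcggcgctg
Top2a, GRCm38.p6 chr11:99024190-99024439, minus strand: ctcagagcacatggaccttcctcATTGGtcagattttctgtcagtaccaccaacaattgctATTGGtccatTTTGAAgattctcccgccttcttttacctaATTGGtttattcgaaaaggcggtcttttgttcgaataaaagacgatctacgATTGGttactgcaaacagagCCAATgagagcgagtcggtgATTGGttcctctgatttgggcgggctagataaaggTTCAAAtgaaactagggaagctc
The marked matches do not overlap. A CCAAT box was in 35.5% of the 11970 promoters, and by gene in a promoter of 40.8% of the 9381 tested genes, 19 of 23 mitosis genes and 14 of 24 replication genes. TTTGAA was in 10.7% of promoters, 12.9% of genes, 8 of 23 mitosis genes and 3 of 24 replication genes, and also in a promoter of 4 of 9 GTPase genes and 4 of 21 antiviral genes. TTTGGCGC was in 0.744% of promoters, 0.917% of genes, 3 of 24 replication genes and 0 of 23 mitosis genes.

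The stress gene lists are set beside all genes tested, of which 26.6% rose and 25.4% fell. The unfolded protein response had 8 of 20 genes higher and 5 lower, with a median of 0.02, and 2 higher and 13 lower by library totals. Hspa5, its main chaperone, rose by 0.46 ± 0.05. In the integrated stress response 8 of 15 genes rose and 1 fell, against 8 and 5 by library totals. Slc3a2, the partner of amino acid transporters, rose by 1.19 ± 0.06, and the serine enzyme Shmt2 fell by 1.04. Of 17 p53 targets 7 rose and 5 fell, against 4 and 8 by library totals, and Fas, the death receptor, rose by 2.14 ± 0.10. Of 35 cytosolic ribosomal protein genes 27 did not pass, 8 fell and none rose, while 32 fell by library totals.

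The largest falls held other kinds of gene beside those of the cell cycle. Slco2b1, an organic anion transporter, had 0.781, 0.926 and 0.477 CPM with both agents, against 29.3, 34.1 and 26.1 CPM with the material alone, the largest fall among genes that averaged 5 CPM or more with the material alone (log2 -5.32 ± 0.24, adjusted p = 7.1e-13). Nptx1, a pentraxin known from neurons, had 1.63, 1.39 and 2.52 CPM with both agents, against 41.1, 46.1 and 41.02 CPM with the material alone (log2 -4.55 ± 0.16, adjusted p = 2.0e-14). The developmental factors Sox4 and Hmga2 fell by 3.24 and 3.20 on the log2 scale, and Ung, which removes uracil from DNA, fell by 3.53. Ranked by mean CPM rather than by fold, the largest losses were in other genes. Gpnmb, a lysosomal membrane glycoprotein, had 5911, 6498 and 6067 CPM with both agents, against 8542, 9124 and 8799 CPM with the material alone (log2 -0.52 ± 0.05, adjusted p = 6.6e-08), and Spp1, which encodes osteopontin, had 589, 679 and 554 CPM with both agents, against 1100.5, 984 and 1084 CPM with the material alone (log2 -0.80 ± 0.08, adjusted p = 6.1e-08). Lgals3, a galectin gene, and Lrp1, a receptor for lipoproteins and proteases, fell by 0.85 and 0.78. By the same measure the largest gains, beside those already given, were in the cytoskeletal gene Actb, the chaperone gene Hspa8 and Tgfbi, a matrix protein gene, which rose by 0.89 ± 0.06, 0.94 ± 0.05 and 2.95 ± 0.07. At the other end of expression, 60 genes had reads in all 3 libraries with both agents and none with the material alone, 21 of them tested. Among them Serpina3f had 34, 44 and 44 reads, at least 50.7-fold higher, Ccl17 had 15, 13 and 10 reads and Il23r, the interleukin 23 receptor, had 12, 7 and 10. The reverse held for 76 genes, 5 of them tested, each with 59 reads or fewer over the libraries with the material alone. Mroh6 had 19, 17 and 23 reads there, so it was at least 15.8-fold lower with both agents. Dkk2 had 7, 11 and 11 reads and Plxnb1 had 11, 9 and 8.

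The response with the material was then set beside the response without it, PgLPS against control, where 3750 genes rose (32.2%) and 3683 fell (31.6%), 63.8% of the genes tested. These comparisons share no library. Of the genes that rose with the material 2816 also rose without it, which is 90.9% of the first list and 75.1% of the second. Of those that fell, 2620 also fell without it, 88.6% and 71.1%. Across the 11656 genes the log2 fold changes had a Pearson r of 0.924 and a Spearman rho of 0.882, as a description over genes, which are not independent replicates and were sequenced and scaled in 1 experiment. The spread of effects was narrower with the material, with an SD of log2 fold changes of 1.11 against 1.48 without it, a ratio of 0.748. A test of the difference between the effects, which is the interaction of the fit, called 869 genes with a more positive effect when the material was present (7.46%) and 972 with a more negative one (8.34%), together 15.8%. By library totals the counts were 1255 and 715, so 63.7% of these calls were positive against 47.2%.

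**Figure D3:**
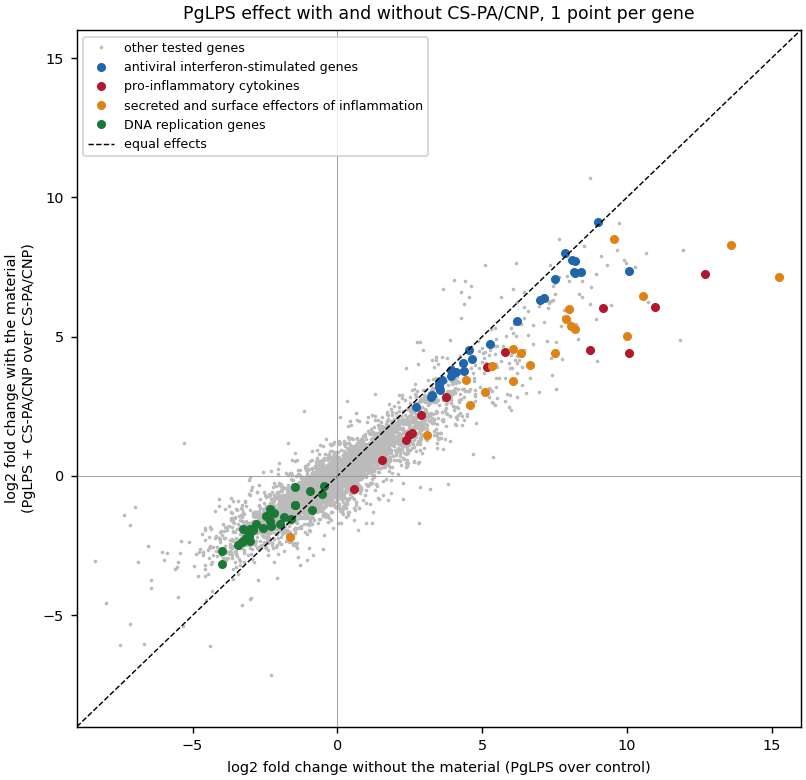
Log2 fold changes with PgLPS in the absence of CS-PA/CNP (horizontal axis, PgLPS over control) and in its presence (vertical axis, PgLPS and CS-PA/CNP over CS-PA/CNP), 1 point per tested gene. The dashed line marks equal effects. Antiviral genes mostly lie near it, cytokines and inflammatory effectors below it and DNA replication genes above it. Fitted values of genes with 3 reads or fewer in a group depend on the fit and are not bounds.

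The inflammatory effectors had a median log2 fold change of 4.48 with the material and 7.08 without it (6.65 with genes of 3 reads or fewer at their bound), and the difference was called negative for 17 of 20 and positive for none. For the cytokines it was negative for 10 of 14, with medians of 3.37 with the material and 4.46 without it, and for the NF-kB genes for 14 of 20, with medians of 0.97 and 1.99. Il1b averaged 499 ± 27.6 CPM with both agents and 3.18 ± 1.54 CPM with the material alone. Without the material it averaged 3064 ± 105 CPM with PgLPS and 0.454 ± 0.328 CPM in control, and the difference between the log2 effects was -5.44 ± 0.38. The level with PgLPS was thus the highest of the 4 groups and that of control the lowest. Saa3 averaged 13137 ± 2341 CPM with PgLPS and 1.06 ± 0.482 CPM in control without the material, a difference of -5.30 ± 0.55. Tnf averaged 236 ± 29.2 CPM with PgLPS and 42.5 ± 2.07 CPM in control without it, a difference of -1.0 ± 0.11. Il6 had 2069 reads over the PgLPS libraries and 2 over the control libraries, so no fold without the material is given, and its mean level was 5.56 CPM with both agents and 46.03 CPM with PgLPS. Hif1a, a regulator of glycolysis added here after its values were seen, averaged 129.9 ± 13.4 CPM with both agents and 97.7 ± 2.26 CPM with the material alone. Without the material it averaged 432 ± 70.2 CPM with PgLPS and 94.8 ± 3.30 CPM in control, a difference of -1.78 ± 0.13. By library totals its change with the material was 0.09 and was not called. Pfkfb3 averaged 550.5 ± 53.7 CPM with PgLPS and 29.4 ± 1.38 CPM in control without the material, a difference of -1.98 ± 0.11, and 13 of 21 glycolysis genes had a negative difference against 1 with a positive one. Neutrophil markers summed to 720 to 726 CPM with PgLPS and to 168 to 198 CPM in control, where Csf3r had 6769 to 8361 reads per library against 883 to 910. Stromal markers summed to 6.0 to 54.1 CPM with PgLPS and to 0.472 to 2.82 CPM in control. Col1a1 had 287, 57 and 18 reads and Col1a2 296, 48 and 7 in PgLPS replicates 1, 2 and 3, so 1 library set the upper end. The part of these markers in these differences was not tested.

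For the antiviral genes the median was 4.38 with the material and 4.59 without it, and the difference was called negative for 12 of 28 and positive for none. Rsad2 averaged 1831 ± 112 CPM with PgLPS and 6.19 ± 0.626 CPM in control without the material, a difference of -0.49 ± 0.13 (adjusted p = 0.0155), and Ifit2 a difference of 0.15 ± 0.17 (adjusted p = 0.657). Ifi205, also an antiviral gene of that list, had a difference of -2.72 ± 0.23 (adjusted p = 9.9e-08). Of 19 class I genes the difference was negative for 13 and positive for none, with medians of 2.09 with the material and 2.66 without it. Of 14 GTPase genes it was negative for 6 and positive for none, with medians of 6.41 and 7.39. Of 18 chemokine ligands it was negative for 9 and positive for 1, with medians of 4.26 and 5.27. None of 9 class II genes had a called difference, and that of H2-Ab1 was -0.25 ± 0.10 (adjusted p = 0.113). Il10 averaged 10.6 ± 0.937 CPM with PgLPS and 2.24 ± 0.389 CPM in control without the material, and its difference of 0.56 ± 0.27 did not pass (adjusted p = 0.189). Adgre1 had a difference of 0.02 ± 0.07 (adjusted p = 0.913).

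Most DNA replication genes fell less with the material. The difference was positive for 20 of 30 genes and negative for none, with medians of -1.73 with the material and -2.42 without it. The mitosis genes had medians of -2.03 and -2.30, and 5 of 28 had a positive difference and 1 a negative one. Mcm5 averaged 12.9 ± 3.03 CPM with PgLPS and 139 ± 6.63 CPM in control without the material, a difference of 0.94 ± 0.16. The member with a negative difference was Mki67, at 33.8 ± 1.26 CPM with PgLPS and 65.3 ± 1.57 CPM in control without the material, a difference of -0.57 ± 0.12. Plau averaged 44.2 ± 1.17 CPM with PgLPS and 1139 ± 21.5 CPM in control without the material, a difference of 2.60 ± 0.08. Nptx1 averaged 0.336 ± 0.179 CPM with PgLPS and 87.7 ± 9.39 CPM in control, a difference of 3.47 ± 0.39. Klhl3, an adaptor of ubiquitin ligases, averaged 1.09 ± 0.296 CPM with both agents and 9.25 ± 1.66 CPM with the material alone. Without the material it had 4 reads over the PgLPS libraries and averaged 11.2 ± 0.970 CPM in control. Its difference of 3.79 ± 0.59 thus rests on few reads.

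A few genes turned round. With the material 30 genes rose that fell without it, and 15 fell that rose without it. Lpl, the lipoprotein lipase and one of the most abundant messengers, had 9354, 10932 and 9708 CPM with both agents, against 7181, 7773 and 7892 CPM with the material alone (log2 0.39 ± 0.07, adjusted p = 1.5e-04), but 5736, 6928 and 5672 CPM with PgLPS, against 9839.5, 10138 and 9475 CPM in control, without the material (log2 -0.68 ± 0.07, adjusted p = 1.2e-07). Cd180, a Toll-like receptor relative that restrains lipopolysaccharide signalling in myeloid cells, had 346, 361 and 331 CPM with both agents, against 208, 208 and 191 CPM with the material alone (log2 0.78 ± 0.06, adjusted p = 1.6e-09), but 219, 231 and 216 CPM with PgLPS, against 279, 269.9 and 260.1 CPM in control, without the material (log2 -0.28 ± 0.06, adjusted p = 3.6e-04). Stap1, a signalling adaptor, and Dcstamp, needed for fusion of osteoclasts, behaved the same way, with log2 fold changes of 0.79 ± 0.07 and 0.35 ± 0.08 with the material and -0.44 ± 0.07 and -0.78 ± 0.08 without it. In the other direction Slc16a3 averaged 86.7 ± 10.6 CPM with PgLPS and 55.8 ± 3.41 CPM in control without the material, with log2 fold changes of -0.95 ± 0.09 with it and 0.64 ± 0.09 without it. Pfkl averaged 134 ± 7.11 CPM with PgLPS and 87.2 ± 6.69 CPM in control, with -0.55 ± 0.08 with the material and 0.62 ± 0.08 without it. Dock5 and Osgin1 fell by 0.79 and 0.70 with the material and rose by 0.39 ± 0.14 and 0.23 ± 0.09 without it. By library totals the changes of Lpl and Dcstamp with the material were 0.07 and 0.03 and were not called. Without the material, library totals shifted the median of all genes by -0.414 on the log2 scale. That shift is larger in size than the rises of Dock5 and Osgin1, so the direction of these rests on the scaling.

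**Figure D4:**
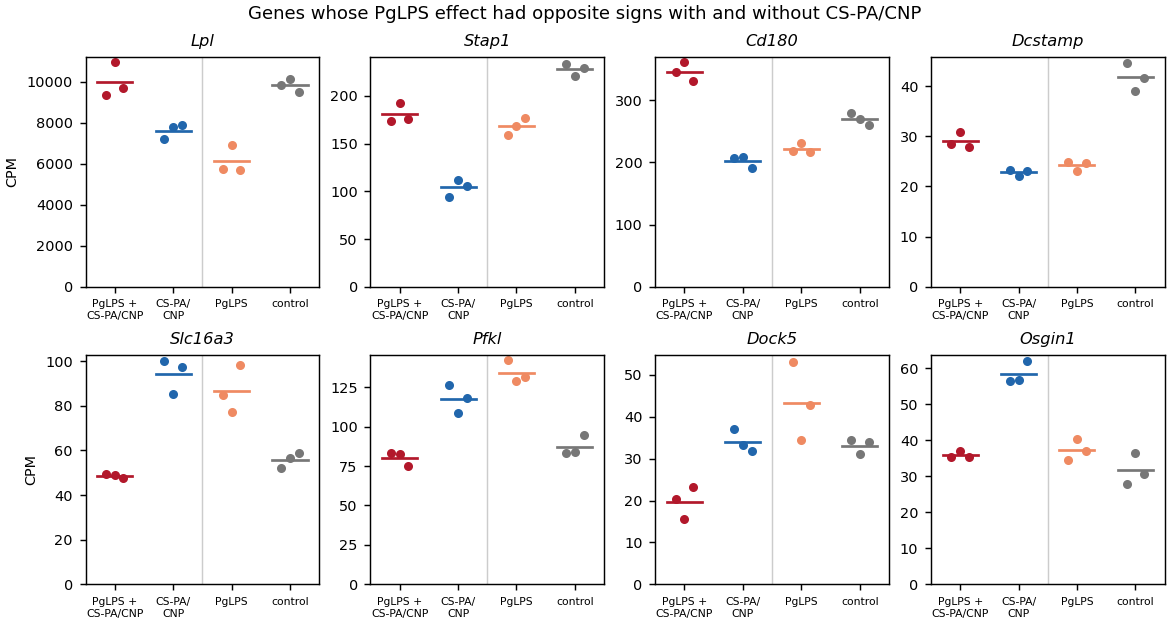
CPM of 8 genes in each library on a linear scale from 0, with points for libraries and lines for group means of 3. In the upper row the mean with PgLPS lies above its counterpart when CS-PA/CNP is present and below it when CS-PA/CNP is absent, and in the lower row the reverse, as for Slc16a3, which averaged 48.7 CPM with both agents and 94.3 CPM with the material alone. For Osgin1 the PgLPS and control libraries overlap.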

How the data were processed

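RNA of mouse bone marrow-derived macrophages was sequenced in 12 libraries, 3 in each of 4 groups. Tools named in the submitters' processing notes, whose roles are not stated there, were HISAT2 2.0.5, cutadapt 1.15, DESeq 1.30.0 and HTSeq 0.9.1. The build and the strand setting were not stated. The deposited table holds the authors' raw read counts per gene. Its 12 FPKM columns were not used. Genes that passed filterByExpr in edgeR 4.0.16 (R 4.3.3), 11656 with 99.97% of reads, were scaled by TMM and fitted in 1 quasi-likelihood model of all 12 libraries, with 3 two-sided contrasts and Benjamini-Hochberg adjustment at 0.05, after tests on simulated data. Levels are CPM, which are not divided by gene length. Alternatives were DESeq2 1.42.0, other scalings, no filter, fewer groups, a replicate block and leaving out each library. The genes, the 42 lists and the motifs were chosen with earlier results of these data known. Named genes were the largest changes by fold (at least 5 CPM in the higher group), by CPM and by difference of effects, genes called in opposite directions, up to 5 list members with the smallest adjusted p, and a fixed set (Arg1, Nos2, Il10, Il6, Il1b, Tnf). Genes sharing a symbol (42) and close copies may share reads. Library depth was 16130784 to 20082900 reads in the groups compared. Promoters are RefSeq GRCm38.p6. Some genes are not reported here.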

Additional observations from a re-analysis of the deposited data

Results flagged for a closer look

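The results below stood out because the log2 effect of PgLPS differed between cells with and without CS-PA/CNP in the interaction test of edgeR's fit, whose differences are the effect with the material minus the effect without it. Over all genes 869 had a more positive effect with the material and 972 a more negative one. Single genes are given where they are named above, had more than 3 reads in each group and had a called difference of at least 1 in size before rounding; smaller called differences of named genes are not listed. The most negative differences were those of Il1b at -5.44, Saa3 at -5.30, Cxcl3 at -4.50, Acod1 at -4.09, Ccl5 at -3.84, Socs3 at -3.31, Il1a at -3.16 and Ptges at -3.12. A second band of negative differences held Marco at -2.95, Fpr1 at -2.78, Traf1 at -2.72, Ifi205 at -2.72, Hp at -2.70, Clec4e at -2.67, Ptgs2 at -2.66, Gbp5 at -2.65, Adora2b at -2.46, Fpr2 at -2.39, Thbs1 at -2.27, Inhba at -2.18, Adora2a at -2.16, Fcgr2b at -2.07, Ass1 at -2.07, Slc7a11 at -2.03 and Mmp14 at -2.02. Negative differences between 1 and 2 in size were those of Pfkfb3 at -1.98, Gbp2 at -1.97, Tlr2 at -1.92, Socs1 at -1.92, Hif1a at -1.78, Fas at -1.75, Slc16a3 at -1.59, Tnip1 at -1.54, Slc2a6 at -1.54, Arg1 at -1.53, Mmp13 at -1.5, Gbp3 at -1.47, C3 at -1.40, Src at -1.33, Nlrp3 at -1.26, Bcl2a1a at -1.26, Cxcl10 at -1.21, Mlkl at -1.19, Dock5 at -1.18, Pfkl at -1.17, Il1rn at -1.12, Ebi3 at -1.07, Jak2 at -1.07, Il4ra at -1.07 and Abca1 at -1.02. Positive differences, where the value with the material was the higher, were largest for Klhl3 at 3.79 (4 reads over the PgLPS libraries), Nptx1 at 3.47, Plau at 2.60, Hpgd at 2.13, Slco2b1 at 1.83 and Sox4 at 1.70. Positive differences between 1 and 1.5 were those of Clec10a at 1.42, Hmga2 at 1.39, Pdgfb at 1.36, Nlrp1b at 1.34, Stap1 at 1.23, Cx3cr1 at 1.23, Ptgs1 at 1.14, Dcstamp at 1.13, Atp6v0d2 at 1.12, Lipa at 1.09, Lpl at 1.08, Cd180 at 1.06 and Cxcl14 at 1.03. Some of these differences lost their call when 1 library was left out. That of Arg1 was -1.28 without CS-PA/CNP replicate 3, -1.28 without control replicate 2 and -1.39 without control replicate 3. That of Slco2b1 was 1.24 without PgLPS replicate 2, and 1.79 and 1.61 without PgLPS and CS-PA/CNP replicates 1 and 2. That of Cxcl10 was -0.98 and -1.14 without CS-PA/CNP replicates 1 and 3 and -0.89 and -1.02 without control replicates 1 and 2, and DESeq2 did not call it either, at -1.20. A difference compares folds, so it also depends on the levels without PgLPS. Marco averaged 43.3 CPM with the material alone and 6.68 CPM in control, against 1680.5 CPM with both agents and 1996.7 CPM with PgLPS. Ass1 averaged 44.4 and 7.52 CPM without PgLPS, and was higher with both agents (394 CPM) than with PgLPS (279 CPM). Pfkfb3 had similar levels without PgLPS, 29.6 and 29.4 CPM, but 140.8 CPM with both agents and 550.5 CPM with PgLPS. No explanation of these differences was tested.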

How the results depend on the processing

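Scaling by library totals instead of TMM factors moved the calls most: 1635 genes then rose and 6413 fell with PgLPS in the presence of CS-PA/CNP, 1569 fell at least 2-fold, and without the material 1945 rose and 6963 fell. TMM factors were 0.890 to 0.901 with both agents and 1.11 to 1.12 with the material alone, so the direction of small changes rests on the scaling. With RLE size factors 3118 genes rose and 2938 fell, with DESeq2 3149 and 2958, with no filter on low counts 3025 and 3064, and with only the groups compared 3013 and 2997. Leaving out 1 library at a time gave 2776 to 3036 genes that rose and 2630 to 2856 that fell, 980 to 1008 and 866 to 926 at 2-fold, 728 to 854 positive and 783 to 991 negative differences, and without the material 3384 to 3659 higher and 3372 to 3634 lower. The column numbers were not shown to pair the libraries, since the correlations of same-numbered deviations were -0.068 to 0.224. With the replicate number as a block, 3362 genes rose and 3197 fell, 1117 differences were positive and 1286 negative, and without the material 3935 rose and 3874 fell. Among the named genes no log2 fold change with the material, and no difference of effects listed above, changed sign under these alternatives. The fold changes of Tlr4, Hif1a, Lpl and Dcstamp with the material lost their call by library totals. Depth limits the genes with few reads, such as Ccl12, Cfb and Nos2, whose folds are given as bounds or counting intervals that cover counting error only.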
